A study of Mus musculus with 8 samples.

Results

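Nus1 encodes NgBR, the Nogo-B receptor. It was examined together with 4 genes whose products work with it or beside it: Dhdds, Rtn4, Npc1 and Npc2. These 5 genes were taken by symbol from the 19642 genes of a liver count table. All 5 were among the 14214 genes with enough reads to be tested. The table holds 4 WT and 4 N-LKO mice, all male, on a C57BL6 background and fed a chow diet (CD). Sample titles give 8 weeks and treatment entries 16 weeks on this diet, and the labels do not state the age of the mice. In N-LKO mice, loxP sites flank exon 1 of Nus1 and the Cre recombinase is under the albumin promoter, which is active in hepatocytes. Recombination in each cell type of the liver was not measured here. The labels call the controls only WT, so whether they carry floxed alleles or Cre is not stated. One library was made per mouse from whole liver after rRNA removal, and the deposited value per gene is an estimated read count.

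NgBR is a membrane protein of the endoplasmic reticulum (ER). It binds DHDDS to form cis-prenyltransferase, the enzyme that builds the long polyprenol chain of dolichol, on which the glycan for protein N-glycosylation is assembled. NgBR was also described as a receptor for Nogo-B, a reticulon protein encoded by Rtn4, and as a partner that stabilizes NPC2. NPC2 is a soluble lysosomal protein that takes cholesterol out of degraded lipoproteins and passes it to NPC1, a lysosomal membrane protein through which it leaves.

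The chromosome 10 gene Nus1 occupies chr10:52417547-52440183 on the plus strand (GRCm38). In GENCODE M21 its coding transcript has 5 exons and 4605 bases, of which 891 are coding (297 codons). Exon 1 covers chr10:52417547-52418168 and holds 427 coding bases, 47.9% of the coding sequence, with the start codon. The following sequences show what recombination removes and the junction that it breaks. In the first, from chr10:52417742-52417801 on the plus strand, capitals mark the start codon. In the second, the last 40 bases of exon 1 are in lower case and the first 40 of exon 2 in capitals.
Nus1 coding start in exon 1: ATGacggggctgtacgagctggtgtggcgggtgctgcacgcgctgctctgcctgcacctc
Nus1 junction of exons 1 and 2: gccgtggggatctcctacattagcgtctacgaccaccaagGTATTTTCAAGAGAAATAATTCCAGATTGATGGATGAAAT

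Exon 1 contributes 622 bases, or 13.5% of the transcript. The other 86.5% lies outside it, and exon 5 alone makes up 78.3%. The deposited count covers the whole gene. RNA from intact alleles and any RNA that a recombined allele still yields from exons 2 to 5 are therefore added together and cannot be told apart.

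**Figure D1:**
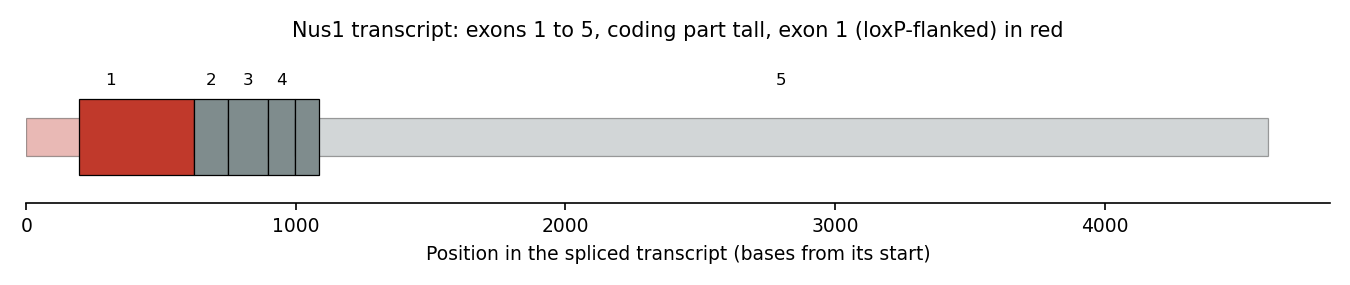
The spliced Nus1 transcript drawn to scale in bases from its start, with exons numbered, coding sequence tall and exon 1 in red. Exon 1 holds 47.9% of the coding bases but 13.5% of the transcript length.

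The level of Nus1 was examined first, as the check of the genotype. Levels are given as CPM, that is read counts scaled to library size, after TMM scaling of the libraries, and errors are SD over 4 livers per genotype. Nus1 was at 82.0, 90.4, 90.5 and 89.7 CPM in WT livers 1 to 4. It was at 33.3, 36.2, 38.7 and 38.7 CPM in N-LKO livers 1 to 4. The groups stood far apart, and the spread within each was narrow. In whole reads, these levels rested on 1428 to 1625 counts per WT liver and 548 to 588 per N-LKO liver.

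Nus1 fell from a mean of 88.2 ± 4.14 CPM to 36.7 ± 2.57 CPM, which left 41.7% of the WT level. The difference of -1.26 on the log2 scale had a standard error of 0.0748 and a 95% interval from -1.43 to -1.10 (adjusted p = 3.06e-05 in edgeR's quasi-likelihood fit). As a fold, the residual level was 0.417 of WT, with an interval from 0.372 to 0.467. The exact two-sided permutation test over livers gave p = 0.0286, the smallest that 4 against 4 allows. Among all tested genes 1 had a lower p and 37 a lower log2 fold change. Among the 7230 genes with a WT mean of at least 10 CPM, 8 fell further than Nus1. Hepatocyte markers were present in every liver, summing to 71680 to 100783 CPM in WT and 75674 to 91476 CPM in N-LKO livers, and of these 8 markers 0 passed the edgeR test and 0 had an unadjusted p under 0.05. In whole liver, fewer cells of a type and less RNA per cell cannot be told apart.

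**Figure D2:**
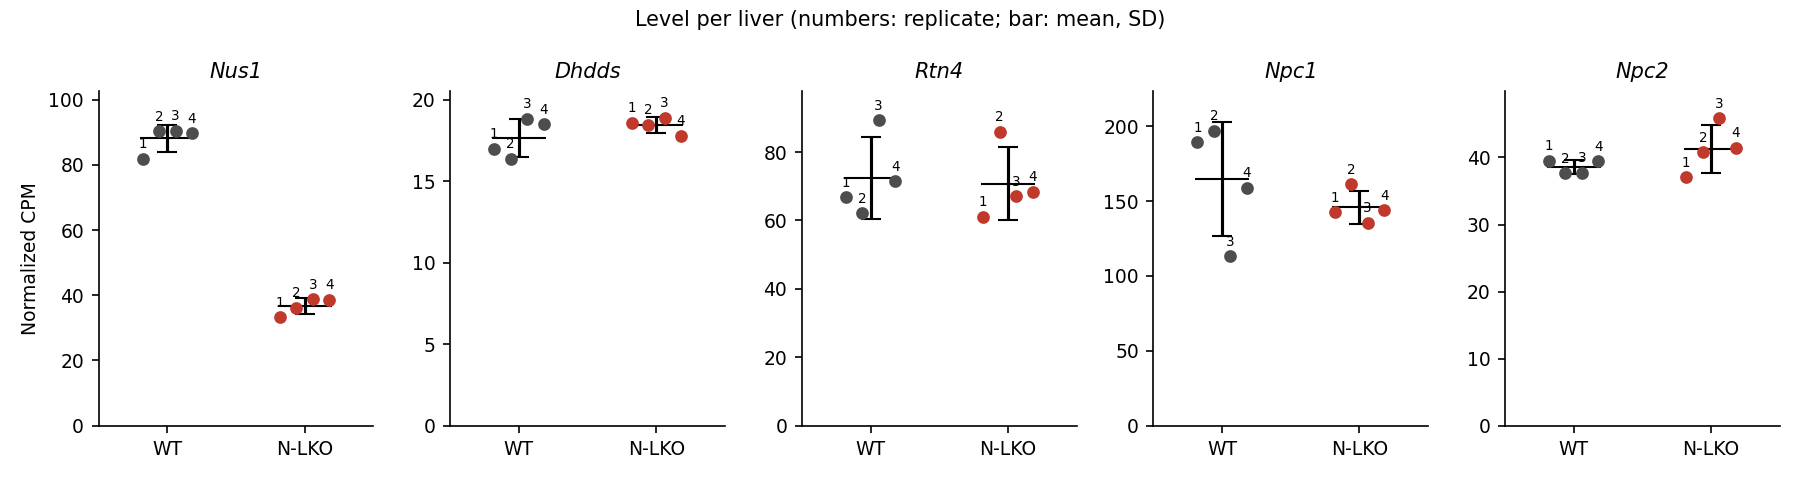
Normalized CPM of each gene per liver, with replicate numbers beside the points and the mean and SD over 4 livers as bars, each axis starting at 0. Nus1 lay at 82.0 to 90.5 CPM in WT and 33.3 to 38.7 CPM in N-LKO livers, and the genotypes overlapped for Dhdds, Rtn4, Npc1 and Npc2.

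Of the 5 genes, Nus1 alone passed the threshold of adjusted p under 0.05. Across all tested genes 1.04% did, 0.823% higher and 0.218% lower in N-LKO livers. Nus1 was also the gene of the 5 without overlap between genotypes, a state found in 7.52% of tested genes. For each of the others a 95% interval of the difference is given, since a test that misses the threshold does not show equal levels.

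Dhdds encodes the catalytic subunit that pairs with NgBR. It lies at chr4:133969028-134000918 on the minus strand. Its level was 17.0, 16.4, 18.8 and 18.5 CPM in WT livers 1 to 4. In N-LKO livers 1 to 4 it was 18.6, 18.5, 18.9 and 17.8 CPM. The N-LKO values were all above the WT mean but inside or close to the WT range, so the genotypes overlapped.

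The means of Dhdds were 17.7 ± 1.17 and 18.4 ± 0.473 CPM. The log2 fold change was 0.062 (standard error 0.0792, edgeR adjusted p = 0.806). Its 95% interval ran from -0.11 to 0.24, or a change from WT of -7.53% to 17.8%. A fall of Dhdds of the size seen for Nus1 lies outside this interval.

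Because both subunits were counted in the same libraries, their ratio does not depend on the scaling between livers. The count of Dhdds divided by that of Nus1 was 0.207, 0.181, 0.208 and 0.206 in WT livers 1 to 4. It was 0.558, 0.511, 0.488 and 0.460 in N-LKO livers 1 to 4. Every N-LKO ratio was above every WT ratio. The mean moved from 0.201 ± 0.0130 to 0.504 ± 0.0415, a 2.51-fold difference (log2 difference 1.33, exact two-sided permutation test, p = 0.0286). With Dhdds nearly level, this ratio restates the fall of Nus1 and is no separate evidence on Dhdds.

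Per base of the longest coding transcript, Nus1 reads exceeded Dhdds reads 3.49 ± 0.242 times in WT livers (range 3.36 to 3.86). In N-LKO livers this excess was 1.39 ± 0.113 times (range 1.253 to 1.521). Nus1 reads thus still stood above Dhdds reads per length in each N-LKO liver. They pool RNA of intact alleles with any RNA of recombined alleles, so the level of intact Nus1 mRNA is not known. No protein was measured.

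Upstream of cis-prenyltransferase, 4 genes that make or draw on its prenyl donor were examined. These are Idi1, Fdps, Ggps1 and Fdft1. Their median log2 fold change was 0.48, against -0.0033 over all tested genes. By edgeR 0 of 4 passed the test and 3 had an unadjusted p under 0.05, and by DESeq2 Fdft1 and Idi1 passed. Of all 14214 tested genes, 12.8% had an unadjusted edgeR p under 0.05, the share to set beside the counts of each list here and below. DESeq2 passed 371 of all tested genes, against 148 by edgeR. Fdft1, which encodes squalene synthase and draws farnesyl diphosphate into the sterol branch, was at 24.5, 28.3, 27.0 and 29.4 CPM in WT livers. It was at 33.5, 34.9, 36.96 and 34.97 CPM in N-LKO livers, above every WT liver. Its log2 fold change of 0.36 had a standard error of 0.0788 and an edgeR adjusted p of 0.0627.

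Downstream, the 8 tested genes for dolichol synthesis and dolichol-linked sugar donors lay close to 0. Their log2 fold changes ran from -0.12 for Mpdu1, which is needed for the use of the dolichol-linked sugars, to 0.053 for Dolk, which encodes dolichol kinase. The median was -0.021, and 0 of 8 had an unadjusted p under 0.05. Dhrsx was not analysed here.

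Assembly of the lipid-linked oligosaccharide was represented by 13 tested genes with a median log2 fold change of 0.054, of which 0 passed the edgeR test and 3 had an unadjusted p under 0.05. Dpagt1, whose product attaches the first sugar to dolichol phosphate, had 13.3 ± 0.816 CPM in WT and 15.4 ± 0.835 CPM in N-LKO livers without overlap (log2 fold change 0.21, edgeR adjusted p = 0.343). Alg10b, which adds the last glucose, had 60.3 ± 3.81 and 70.1 ± 1.99 CPM, again without overlap (0.22, edgeR adjusted p = 0.198). The 12 genes of oligosaccharyltransferase, which transfers the glycan to protein, had a median of 0.14, with 0 of 12 past the edgeR test and 4 at an unadjusted p under 0.05. Krtcap2 had the highest value (0.43, edgeR adjusted p = 0.291) and Ost4 the lowest (-0.21, edgeR adjusted p = 0.384).

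Rtn4 encodes the Nogo proteins, among them Nogo-B, the form described as a ligand of NgBR. It lies at chr11:29692947-29744331 on the plus strand. Its level in WT livers 1 to 4 was 66.7, 62.1, 89.3 and 71.5 CPM. In N-LKO livers 1 to 4 it was 61.1, 85.9, 67.1 and 68.4 CPM. One liver of each genotype, WT 3 and N-LKO 2, stood above the other 3, and the ranges nearly coincided. These were also the livers with the highest sums of erythroid markers (333 and 188 CPM, against 42.7 to 85.3 CPM in the other 6), whose part in the Rtn4 level was not tested.

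The Rtn4 means were 72.4 ± 11.9 and 70.7 ± 10.7 CPM. The log2 fold change was -0.035 (standard error 0.130, edgeR adjusted p = 0.947), with a 95% interval from -0.32 to 0.25, or 0.80 to 1.19 of the WT level. Its sign turned when WT 3 or N-LKO 1 was left out (0.080 and 0.028). The gene-level count does not separate Nogo-A, Nogo-B and Nogo-C. Of the exonic bases of Rtn4, 18.4% also belong to exons of Eml6 on the opposite strand. Whether reads were counted by strand is not stated, and Eml6 itself had too few counts to be tested.

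Set against its receptor gene, the Rtn4 count was 0.814, 0.687, 0.986 and 0.797 of the Nus1 count in WT livers 1 to 4. In N-LKO livers 1 to 4 the ratio was 1.83, 2.38, 1.73 and 1.77. The raw count of Rtn4 was below that of Nus1 in every WT liver and above it in every N-LKO liver. These ratios are not corrected for length, pool the Nogo forms and give no order of transcript levels. The mean ratio went from 0.821 ± 0.124 to 1.93 ± 0.302, a 2.35-fold difference (log2 difference 1.23). It restates the fall of Nus1 and says nothing further on Rtn4 (exact two-sided permutation test, p = 0.0286).

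**Figure D3:**
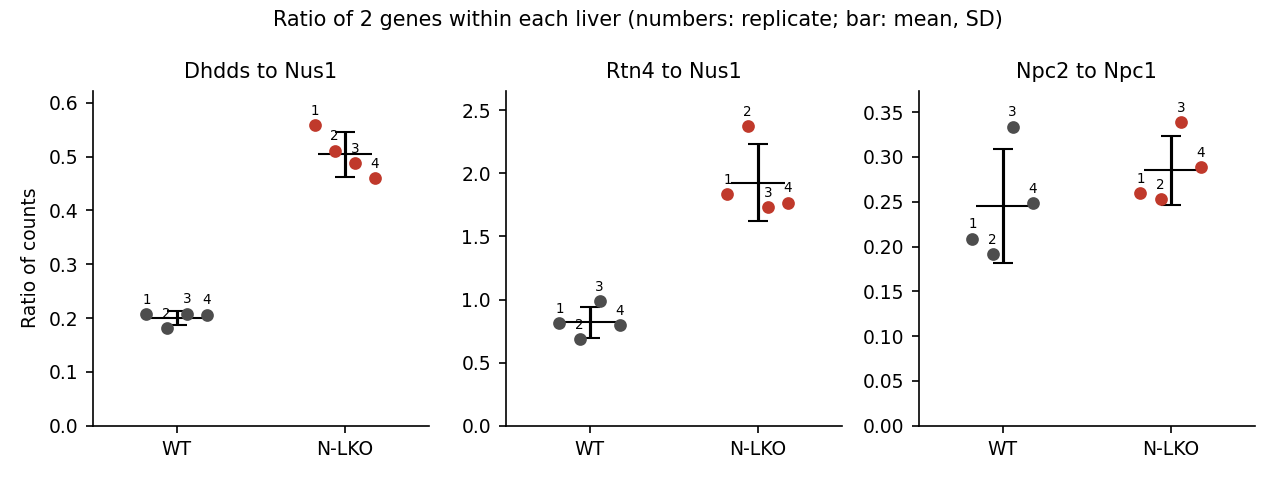
Ratio of the read counts of a pair of genes within each liver, with replicate numbers beside the points and the mean and SD over 4 livers as bars. The Dhdds to Nus1 and Rtn4 to Nus1 ratios did not overlap between genotypes, whereas Npc2 to Npc1 ratios did (0.191 to 0.334 in WT, 0.253 to 0.339 in N-LKO).

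The other reticulons share the C-terminal ER-shaping domain of the Nogo proteins. Per kilobase, Rtn3 was at 22.8 CPM per kb in WT livers with its longest coding transcript and Rtn1 at 0.255. In CPM, Rtn3 was at 114 ± 4.69 CPM in WT and 120 ± 6.59 CPM in N-LKO livers (log2 fold change 0.065, standard error 0.0689, edgeR adjusted p = 0.757). Rtn1 was near 1 CPM in both genotypes (-0.13, standard error 0.304, edgeR adjusted p = 0.912), and its sign turned without WT 3 or without N-LKO 4 (0.019 and 0.062). Rtn2 had 0 to 9 counts per liver and was not tested.

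A further list of 9 genes held proteins that shape the ER, among them Ckap4 of ER sheets, and Rtn4ip1, a mitochondrial partner of Nogo. Of these, 0 passed the edgeR test, 2 had an unadjusted p under 0.05 and the median log2 fold change was -0.045. Reep6, a curvature-forming ER protein abundant in liver, was at 628 ± 50.2 CPM in WT and 523 ± 26.4 CPM in N-LKO livers without overlap (-0.26, edgeR adjusted p = 0.208). Atl2, a GTPase that fuses ER tubules, had 236 ± 11.5 and 292 ± 39.7 CPM (0.31, edgeR adjusted p = 0.218).

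NgBR differs from the Nogo receptors of neurons. Of 8 genes of the neuronal receptor complex and other Nogo receptors, 5 were tested, of which 0 passed by edgeR and 1 had an unadjusted p under 0.05. Their median log2 fold change was -0.12. S1pr2, a receptor for sphingosine 1-phosphate that also binds Nogo-A, had 2.71 ± 0.349 CPM in WT and 3.71 ± 0.806 CPM in N-LKO livers (0.45, edgeR adjusted p = 0.356). Pirb, a receptor of myeloid cells, had 3.13 ± 1.51 and 2.26 ± 0.335 CPM (-0.48, edgeR adjusted p = 0.573). Rtn4r, Rtn4rl2 and Lingo1 were not analysed here. Nogo-B is also known to bind and restrain serine palmitoyltransferase, the first enzyme of sphingolipid synthesis. The 6 tested genes of that enzyme and its regulators had a median of -0.011, with 0 of 6 past the edgeR test and 1 at an unadjusted p under 0.05.

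Npc1 lies at chr18:12189692-12236400 on the minus strand. In WT livers 1 to 4 it was at 189, 197, 113 and 159 CPM. In N-LKO livers 1 to 4 it was at 143, 161, 135 and 143.9 CPM. WT 3 was the lowest of the 8 livers and the other 3 WT livers were among the 4 highest, so the N-LKO range lay inside the WT range.

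The Npc1 means were 165 ± 38.2 and 146 ± 10.9 CPM, and all 4 N-LKO livers were below the WT mean. The log2 fold change of -0.18 had a standard error of 0.151 (edgeR adjusted p = 0.687) and a 95% interval from -0.51 to 0.16, or -29.7% to 11.5%. With 1 liver left out the value ran from -0.32 without WT 3 (edgeR adjusted p = 0.224) to -0.10 without WT 1 and -0.078 without WT 2 (edgeR adjusted p = 0.834 and 0.900). WT 3 also had the highest summed level of erythroid markers (333 CPM, against 42.7 to 85.3 CPM in the other WT livers). N-LKO 2, with 188 CPM the highest of the N-LKO livers for these markers, had the highest Npc1 of its genotype. The part of erythroid RNA in the Npc1 level was not tested. Of the exonic bases of Npc1, 4.52% are shared with Rmc1 on the opposite strand, which was at 10.7 ± 1.18 and 9.94 ± 1.58 CPM.

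Npc2 lies at chr12:84754562-84773152 on the minus strand. WT livers 1 to 4 had 39.5, 37.6, 37.7 and 39.5 CPM. N-LKO livers 1 to 4 had 37.03, 40.8, 45.8 and 41.5 CPM. Of the N-LKO livers 3 were above and 1 was below all WT livers, and the spread was larger in N-LKO than in WT livers.

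The Npc2 means were 38.6 ± 1.05 and 41.3 ± 3.62 CPM. The log2 fold change was 0.097 (standard error 0.0780, edgeR adjusted p = 0.659), with a 95% interval from -0.075 to 0.27, or -5.09% to 20.5%. The NPC2 protein, which NgBR was described to stabilize, was not measured here.

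The Npc2 to Npc1 count ratio was 0.209, 0.191, 0.334 and 0.248 in WT livers 1 to 4. In N-LKO livers 1 to 4 it was 0.260, 0.253, 0.339 and 0.288. WT 3, with its low Npc1, was beside the highest N-LKO liver. The mean ratios were 0.246 ± 0.0636 and 0.285 ± 0.0389 (log2 difference 0.24, exact two-sided permutation test, p = 0.229).

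**Figure D4:**
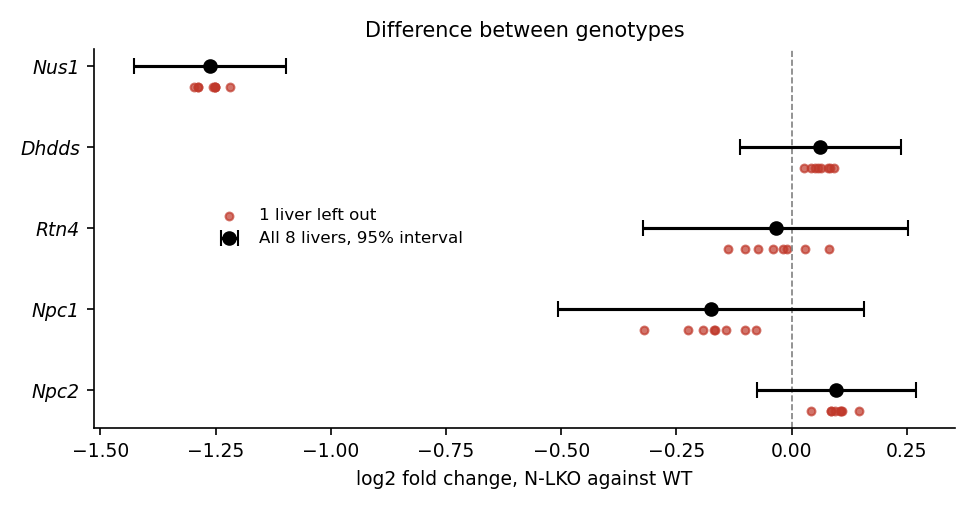
Log2 fold change of N-LKO against WT for each gene, with the 95% interval of the edgeR fit on all 8 livers in black and the value with each liver left out in turn in red. Nus1 stayed between -1.30 and -1.22, and the intervals of Dhdds, Rtn4, Npc1 and Npc2 include 0.

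Around the NPC proteins, 11 genes for the release and export of lysosomal cholesterol were tested. Their median log2 fold change was 0.055, 10 of 11 values were above 0, 0 of 11 passed the edgeR test and 3 had an unadjusted p under 0.05. The exception in sign was Lipa, which encodes the lysosomal acid lipase that frees cholesterol from its esters. Lipa was at 346, 344, 419 and 414 CPM in WT livers 1 to 4 and at 243, 364, 293 and 271 CPM in N-LKO livers 1 to 4. N-LKO 2 reached into the WT range (log2 fold change -0.38, standard error 0.127, edgeR adjusted p = 0.225). Lamp2, a binding partner of cholesterol in the lysosomal membrane, was at 794 ± 13.2 and 832 ± 50.1 CPM (0.067, edgeR adjusted p = 0.784).

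NPC1 has a sterol-sensing domain, as do several proteins of cholesterol synthesis and of hedgehog signalling. The 5 tested genes for such proteins had a median log2 fold change of -0.070, with 0 of 5 past the edgeR test and 1 at an unadjusted p under 0.05. Ptch1, the hedgehog receptor, was at 33.9 ± 4.11 and 30.3 ± 6.35 CPM (-0.17, edgeR adjusted p = 0.680). Npc1l1, the intestinal and biliary sterol transporter, was not analysed here. Among 5 genes for sterol esterification and lipoprotein uptake the median was 0.077, 0 passed the edgeR test and 3 had an unadjusted p under 0.05.

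When ER cholesterol is low, SREBP2 switches on genes of sterol synthesis. The 8 tested SREBP2 targets all had a log2 fold change above 0, with a median of 0.74. Of these, 7 had an unadjusted p under 0.05 (12.8% of all tested genes did) and 1 passed the edgeR test. This was Insig1, whose product holds the SREBP machinery in the ER. Insig1 was at 26.7, 29.8, 27.5 and 33.6 CPM in WT livers 1 to 4. In N-LKO livers 1 to 4 it was at 37.8, 59.3, 57.0 and 62.0 CPM. All N-LKO livers were above all WT livers, and N-LKO 1 stood apart from the other 3. N-LKO 1 lay inside the WT range for 5 of the other targets, Sqle, Idi1, Fdps, Cyp51 and Hmgcs1.

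Insig1 rose from 29.4 ± 3.08 to 54.0 ± 11.0 CPM (log2 fold change 0.88, standard error 0.146, edgeR adjusted p = 0.0180). The call was lost without WT 2, WT 3 or N-LKO 3, with edgeR adjusted p values of 0.0536, 0.0607 and 0.0608. Sqle, the squalene epoxidase, was at 6.95 ± 1.65 and 14.4 ± 5.53 CPM (1.04, edgeR adjusted p = 0.156), with N-LKO 1 at 6.52 CPM and the other 3 N-LKO livers at 14.9 to 19.1 CPM. Mvd was at 0.330 ± 0.108 and 0.967 ± 0.225 CPM without overlap (1.51, edgeR adjusted p = 0.0705). Fdps and Idi1 are in this list and in that of the prenyl donors.

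Over the 12 pathway lists, counting each gene once, 86 of 94 genes were tested. Of these 1 passed higher and 0 lower, while 26 (30.2%) had an unadjusted p under 0.05, against 12.8% of all tested genes. The lists were chosen with earlier results of these data known, so the difference in share is a description. The 26 include 7 of 8 SREBP2 targets and 3 of 4 prenyl donors, lists that share Fdps and Idi1. No overlap between genotypes was found for 10 of the 86 (11.6%), against 7.52% of all tested genes. DESeq2 passed 4, namely Fdft1, Idi1, Insig1 and Sqle, and limma-voom passed Insig1. Over all 14214 tested genes DESeq2 passed 371 and limma-voom 126. The median log2 fold change over the 86 genes was 0.054.

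**Figure D5:**
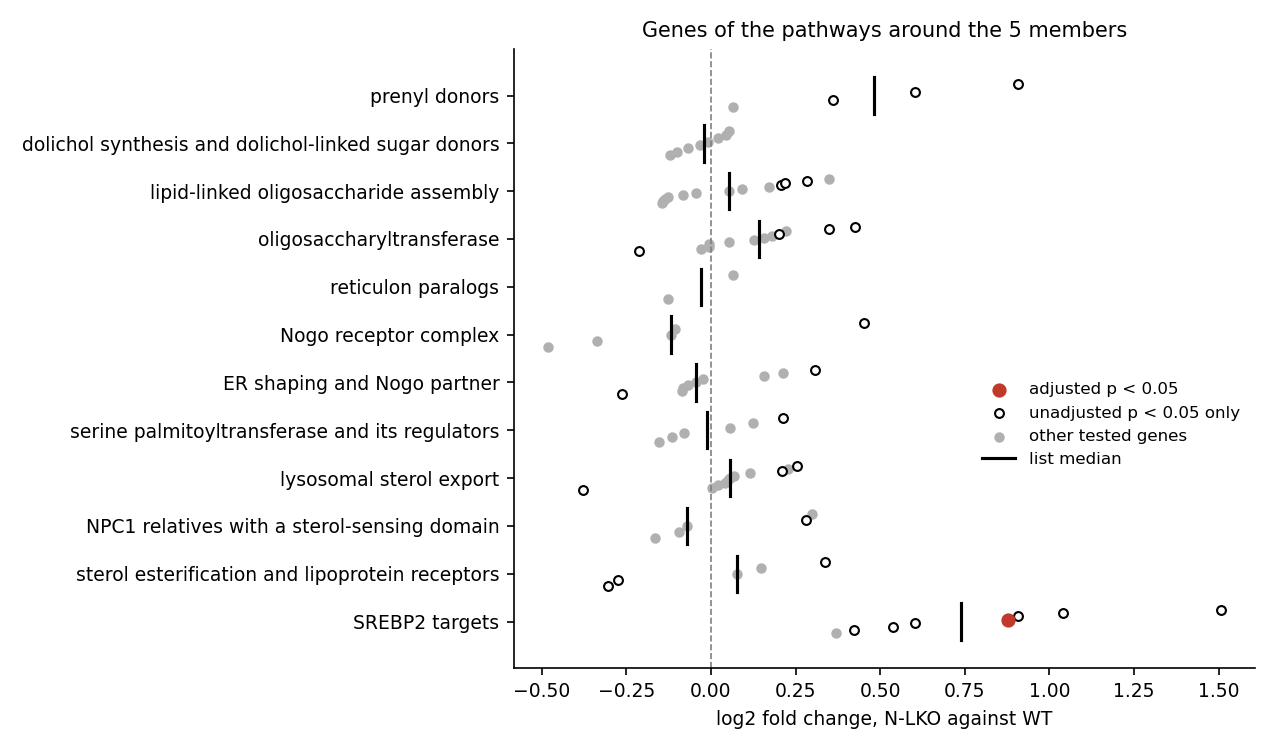
Log2 fold change of each tested gene in 12 lists of genes that work around the 5 genes, with list medians as bars. Insig1 at 0.88 is the gene past the adjusted threshold, and the prenyl donor and SREBP2 lists have medians of 0.48 and 0.74.

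The other 4 genes were then set against residual Nus1, mouse by mouse. Residual Nus1 was 37.8%, 41.0%, 44.0% and 43.9% of the WT mean in N-LKO livers 1 to 4. Dhdds was at 105%, 105%, 107% and 101% of its WT mean in the same livers. It varied little, and its lowest value was in N-LKO 4, a liver with one of the higher Nus1 levels.

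Rtn4 was at 84.4%, 119%, 92.8% and 94.5% of its WT mean in N-LKO livers 1 to 4. Npc1 was at 86.6%, 97.9%, 82.3% and 87.4%. Both peaked in N-LKO 2, which was below N-LKO 3 and N-LKO 4 in Nus1. Npc2 was at 95.9%, 106%, 119% and 107%, and its order over the N-LKO livers, from 3 to 4 to 2 to 1, was that of Nus1, for which N-LKO 3 and 4 differed little. N-LKO 3, the highest for Npc2, also had the highest summed levels of portal fibroblast markers (95.9 CPM, against 50.8 to 53.5 CPM in the other N-LKO livers) and of cholangiocyte markers (134 against 52.6 to 84.3 CPM). It was likewise highest of its genotype for Kupffer cell markers (164 against 100.2 to 121 CPM) and infiltrating macrophage markers (16.1 against 11.2 to 12.9 CPM). In WT livers, Kupffer cell markers summed to 174 and 180 CPM in WT 1 and 4, which had the higher Npc2, and to 101 and 104 CPM in WT 2 and 3. N-LKO 4 went the other way, with the lowest Kupffer sum of all livers (100.2 CPM) and Npc2 at 41.5 CPM, above every WT liver. The part of these cells in the Npc2 level was not tested.

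The 8 livers form separate clusters in Nus1 with 4 livers in each. No correlation is given, since a pooled one would restate the genotype difference and 4 livers are too few within a genotype. The relation of residual Nus1 to the other genes was not tested.

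Relative spread between mice also separated the genes. The SD of Nus1 was 4.70% of the mean in WT and 6.99% in N-LKO livers. Npc1 varied by 23.2% in WT but 7.50% in N-LKO livers, while Npc2 varied by 2.72% and 8.76%. Rtn4 varied by 16.4% and 15.1%, and Dhdds by 6.64% and 2.56%. Among 6672 genes with a mean of 10 to 200 CPM the median was 8.71% in WT and 9.07% in N-LKO livers, and the 90th percentile in WT was 19.7%. Npc1 in WT livers thus lay above that percentile, and its value rested on WT 3.

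Levels of different genes were compared per kilobase of the longest coding transcript. In WT livers the order was Npc1 (31.5 ± 7.30 CPM per kb), Nus1 (19.1 ± 0.899), Rtn4 (15.7 ± 2.57), Npc2 (11.7 ± 0.318) and Dhdds (5.49 ± 0.364). The ranges of Nus1 and Rtn4 overlapped (17.8 to 19.7 and 13.4 to 19.3), and other neighbours in the order did not overlap. This order depends on the length used. Per kilobase of all exonic bases, WT Nus1 (18.1, range 16.8 to 18.6) stood above Npc1 (14.5, range 9.98 to 17.4), and these ranges overlapped. In N-LKO livers the order was Npc1 (27.9 ± 2.09), Rtn4 (15.3 ± 2.31), Npc2 (12.5 ± 1.10), Nus1 (7.98 ± 0.557) and Dhdds (5.73 ± 0.147).

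Rtn4 and Npc2 overlapped there (13.2 to 18.6 and 11.2 to 13.9). By longest coding transcript, Nus1 had moved below Npc2 and remained above Dhdds, whose range was 5.53 to 5.87 against 7.24 to 8.41 for Nus1. Per kilobase of all exonic bases, Nus1 (7.55, range 6.85 to 7.96) and Npc2 (7.59, range 6.81 to 8.43) overlapped in N-LKO livers. The place of Rtn4 also depends on its transcript. With the shortest of its 6 coding transcripts (1272 bases in place of 4618), a length chosen after seeing the data, it was at 56.9 CPM per kb in WT and 55.6 in N-LKO livers, the highest of the 5.

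Promoter windows of 250 bases before the start were read from RefSeq sequence (GRCm38.p6) for Nus1, Dhdds, Rtn4 and Npc2, and both strands were searched. The CCAAT box was found in a window of each of these genes and in 33.8% of all 32851 windows. The palindrome TCACGTGA, the core of the element through which lysosomal genes are coordinated, was found in the window of Dhdds and in 0.785% of all windows. It is shown in capitals in chr4:134001018-134001065, minus strand, and lies 155 bases before the start.
Dhdds promoter: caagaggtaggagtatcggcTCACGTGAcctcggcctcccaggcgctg

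Windows of Nus1, Rtn4 and Npc2 did not hold these letters. A sterol response element and an ER stress response element, searched in the same way, were in 0.192% and 0.113% of all windows and in no window of these 4 genes. The absence says only that these letters are not in these windows. A match is a description of sequence.

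The 3 nearest tested genes on each side of Nus1 were examined as neighbours of the deleted exon. On the near side these were Gm6627, Gopc and Dcbld1, 35.4 to 96.2 kb away. On the far side they were Cep85l, Gm17823 and Pln, at 833 kb and beyond. Of the 6, 0 passed by edgeR, DESeq2 or limma-voom, and 1, Pln, had an unadjusted edgeR p under 0.05. Gm6627 was at 6.10 CPM in WT and 5.15 CPM in N-LKO livers (log2 fold change -0.24, edgeR adjusted p = 0.421). Its values did not overlap between genotypes, a state found in 7.52% of tested genes. Gopc, which encodes a Golgi trafficking protein and lies nearest, was at 30.5 and 32.1 CPM (log2 fold change 0.074, edgeR adjusted p = 0.814). Pln, the calcium pump regulator phospholamban, had the lowest value, at 1.05 and 0.535 CPM (-0.98, edgeR adjusted p = 0.368).

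Of 13166 tested genes averaging 1 CPM or more, the 5 whose log2 CPM pattern over the 8 livers was most like that of Nus1 were found by the root mean square difference after subtracting each gene's WT mean. Colec10, a liver collectin, was the closest at 0.218. Colec10 was at 31.6, 24.1, 31.4 and 30.6 CPM in WT livers 1 to 4 and at 11.5, 14.6, 11.3 and 10.1 CPM in N-LKO livers 1 to 4. The groups did not overlap, and Colec10 fell by 1.31 on the log2 scale (standard error 0.129, edgeR adjusted p = 0.000876). Rcan2, a calcineurin regulator, followed at 0.228 and had 5.26 ± 0.592 and 2.42 ± 0.622 CPM (log2 fold change -1.13, edgeR adjusted p = 0.0186). Its call was lost without WT 4, N-LKO 1 or N-LKO 3 (edgeR adjusted p = 0.0713, 0.0505 and 0.0608).

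Ifit1, an interferon-induced gene, was at 0.283 and had 16.4 ± 3.60 and 8.32 ± 1.11 CPM (log2 fold change -0.98, edgeR adjusted p = 0.0154). Gm35986 (0.268) and C730034F03Rik (0.273) did not pass the test, each with an edgeR adjusted p of 0.0535. These genes were chosen for falling as Nus1 did, so their fall is a description.

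Markers of other cells moved with genotype and stand beside the values above. Across all tested genes 0.823% passed the edgeR test higher and 0.218% lower in N-LKO livers. The summed level of 6 infiltrating macrophage markers was 3.55 to 7.16 CPM in WT and 11.2 to 16.1 CPM in N-LKO livers, with 2 of 4 tested passing higher (Gpnmb and Mmp12). Portal fibroblast markers summed to 21.6 to 35.4 and 50.8 to 95.9 CPM, with 2 of 7 passing higher (Col1a1 and Dpt). Cholangiocyte markers summed to 23.4 to 45.3 and 52.6 to 134 CPM, with 2 of 4 tested passing higher (Epcam and Spp1), and 3 mesothelial markers to 2.56 to 3.53 and 4.25 to 4.82 CPM, with Wt1 passing higher.

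These 4 sums did not overlap between genotypes. Those of Kupffer, sinusoidal endothelial, stellate, T, B, neutrophil and erythroid markers overlapped, with Ecm1 passing lower among 7 stellate markers. None of the markers in the table was at 0 in all livers. The part of such cells in the residual Nus1 level, the intervals of the other 4 genes and the pathway lists was not tested. Library totals were 15430519 to 18412201 counts in WT and 14688404 to 18585412 counts in N-LKO livers.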

How the data were processed

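Total liver RNA was rRNA-depleted (Ribo-Zero), and single-end reads of 75 bases were made on an Illumina HiSeq. The deposited unit is the expected count, an estimate of the reads of each gene made by the authors without normalization (52.3% of genes have decimals). The methods name TopHat2 and cuffdiff, whereas the submitters' processing notes name STAR, Partek and mm9. The program that made the counts and its use of strand are not given in the sources used here. Deposited coordinates matched GRCm38 (GENCODE M21) for 19006 of 19194 symbols found (99.0%), with the end 1 base further.

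Counts were rounded, filtered by filterByExpr (minimum count 10, minimum total 15), scaled by TMM and fitted on genotype alone in edgeR 4.0.16 under R 4.3.3 (glmQLFit, glmQLFTest). Benjamini-Hochberg adjustment ran over 14214 genes, with a threshold of 0.05. Standard errors were the log2 fold change over the root of F. Log2 CPM used a prior count of 2, with 0.5 as an alternative. Ratios were set against all 70 splits of the livers (exact permutation, two-sided). The code was tested on simulated counts. Totals of 14688404 to 18585412 counts put Nus1 at 548 counts or more per liver. Intervals give the uncertainty of the difference between genotypes, and the SD gives the spread between these mice.

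The 5 genes and the lists were chosen with earlier results of these data known. Named were the 5 genes, called genes of the lists, the reticulon paralogs, Npc1l1, the 3 nearest tested genes on each side of Nus1 and the 5 genes most like it. Other genes were named after their values were seen. Alternatives were DESeq2 1.42.0, limma-voom (3.58.1), RLE scaling, unscaled library totals, all genes unfiltered, a minimum of 10 counts per liver, replicate number or library number as a block, and each liver left out. All libraries carry the same lane number. A running number in the library names, whose meaning is not stated, places all WT before all N-LKO libraries. An effect of that order could not be told apart from genotype. The HFD and WD livers of the study were not analysed here. Single values of some list genes are not reported here.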

Additional observations from a re-analysis of the deposited data

Results flagged for a closer look

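In 11 of 136 sets of 4 livers examined, 1 liver lay further from the other 3 than Dixon's 95% limit allows, where chance gives 6.8. A gene was examined in CPM and in log2 CPM, so some of these are the same observation.

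Nus1 was lowest among WT livers in WT 1, at 82.0 CPM (log2 CPM 6.36), against 89.7 to 90.5 CPM in the other 3. The Dhdds to Nus1 count ratio was lowest among WT livers in WT 2, at 0.181. The Rtn4 to Nus1 ratio was highest among N-LKO livers in N-LKO 2, at 2.38, the liver with the highest Rtn4 level of its genotype. Insig1 was lowest among N-LKO livers in N-LKO 1, with a log2 CPM of 5.24, and this liver also had the lowest residual Nus1. Colec10 was lowest among WT livers in WT 2, at 24.1 CPM (log2 CPM 4.60).

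Among marker sums, portal fibroblast markers reached 95.9 CPM in N-LKO 3 and neutrophil markers 3.47 CPM in WT 1. Erythroid markers reached 333 CPM in WT 3, and mesothelial markers were lowest among N-LKO livers in N-LKO 1, at 4.25 CPM.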

How the results depend on the processing

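Nus1 passed the test under every alternative run, with log2 fold changes from -1.30 to -1.22, and Dhdds, Rtn4, Npc1 and Npc2 passed under none. The sign held for Dhdds, Npc1 (-0.32 to -0.078 with 1 liver left out) and Npc2. Rtn4 turned to 0.080 without WT 3 and 0.028 without N-LKO 1 (range with 1 liver left out -0.14 to 0.080), and Rtn1 to 0.019 and 0.062 (range -0.28 to 0.062). Cep85l turned to -0.045, -0.023 and -0.13 without WT 1, WT 3 and N-LKO 4 (range to 0.45), and Gm17823 to 0.11 without WT 2 (range -0.23 to 0.11). The cause was not tested.

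The replicate number did not pair the mice: correlations of deviations for shared title numbers were 0.0625, -0.0853, 0.0396 and 0.0433, and for library numbers -0.0092, 0.166, 0.0648 and 0.0767. With the replicate block the log2 ratio of Dhdds to Nus1 stayed at 1.33 and that of Rtn4 to Nus1 at 1.23, each with an exact permutation p of 0.125, the smallest that 4 pairs allow. With 1 liver left out these ratios were 1.28 to 1.37 and 1.13 to 1.32, each with an exact permutation p of 0.0571, the smallest possible. The block changed no call for the 5 genes. It called 131 genes by title number and 113 by library number, where Rcan2 (edgeR adjusted p = 0.0618) and Ifit1 (0.0552) lost theirs.

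Of all genes 148 were called, 98 with at least 10 counts in every liver (12893 tested) and 71 to 173 with 1 liver left out: 83 without WT 2, 91 without WT 3, 71 without WT 4 and 76 without N-LKO 3. DESeq2 called 371, with 66.8% higher in N-LKO against 79.1% by edgeR. Of the pathway genes DESeq2 called 4, and 0 to 3 were called with 1 liver left out: 0 without WT 2, WT 3 or N-LKO 3 and 3 without N-LKO 1 (Idi1, Insig1 and Sqle). DESeq2 also called Gm35986 and C730034F03Rik. With 1 liver left out the Npc2 to Npc1 log2 ratio of 0.24 ran from 0.13 without WT 2 (exact permutation p = 0.457) to 0.40 without WT 3 (exact permutation p = 0.0571), with 0.15 without N-LKO 3 and 0.17 without WT 1 (it stayed above 0). Depth limits Rtn2, Rtn1 and Mvd, at about 1 CPM or below.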
